A study of Mus musculus with 12 samples.

Results

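The genes described here encode the MYC, MAX and MXD network of transcription factors, and they were followed through 4 groups of sorted mouse osteoblasts. The 10 members were taken by gene symbol from a table of 32288 genes and transgenes, and all 10 were present in it. They comprise 3 MYC paralogs (*Myc*, *Mycn* and *Mycl*), the dimer partners *Max* and *Mlx*, and 5 antagonists (*Mxd1*, *Mxd3*, *Mxd4*, *Mxi1* and *Mnt*).

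MYC proteins bind DNA only as dimers with MAX, mostly at E-box sequences, and recruit acetyltransferases and elongation factors that raise the transcription of growth and biosynthesis genes. The MXD proteins, MXI1 and MNT compete for the same partner and bring SIN3 and histone deacetylase complexes to the same sites, so the make-up of the network sets a balance between growth and withdrawal from the cell cycle. MLX is a second partner, which MNT, MXD1 and MXD4 can share with the glucose-responsive factors MondoA and ChREBP, and MYC itself is a frequent oncogene in bone tumours.

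All 12 libraries were bulk RNA-seq of mGFP+ cells sorted from the metaphysis of long bones of tamoxifen-treated mice that carried *Osx-CreERT2* and *mTmG* on a mixed C57BL/6 and 129X1/Sv background. Juvenile *Osx*+ osteoblasts (3 weeks of age, 4 libraries) and adult *Osx*+ osteoblasts (8 weeks of age, 4 libraries) carried no further allele, and 2 male mice were pooled for each library. The *c-Myc*-induced osteoblasts (2 libraries) also carried *LSL-tTA* and *Col1a1::TetO-c-Myc*, and the *c-Myc* + *R172H* osteoblasts (2 libraries) carried *LSL-Trp53 R172H* in addition. The strain description names the *c-Myc* allele *Col1a1::TetO-cMyc-IRES-mCherry*, so both induced groups also carried an mCherry cassette. Both induced groups received tamoxifen at 3 weeks of age and were collected 7 days later, whereas the dissection protocol calls them 5 weeks old. The bone was cut about 5 mm from the growth plate in the induced groups and about 2 mm from it in the controls. The cell preparation text describes the induced mice as male and female, whereas a general statement gives males for RNA-seq. Transgene, age at collection, dissection and time since tamoxifen thus cannot be told apart in any comparison of induced with juvenile libraries. Sex was not matched in these comparisons either. The *Osx* promoter drives Cre in every group, and the transgene is expressed in the absence of doxycycline. A gene count cannot separate endogenous *Myc* reads from transgene reads, and the sources do not state whether transgene reads were counted to the *Myc* entry. *Myc* below means all reads counted to that entry.

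Library totals ranged from 9066154 to 15684412 counts. Expression is given as CPM, the read count scaled by a library size that was adjusted with the TMM method over all 12 libraries, and levels of different genes are compared only per kilobase of the longest coding transcript. *Col1a1*, *Col1a2* and the RNA gene *Gm26917* together took 57.1 to 65.3% of the counts in juvenile libraries and 35.2 to 46.1% in induced libraries. With library totals alone in place of TMM factors, the median log2 fold change of all genes moved from 0.04 to 0.87 in the *c-Myc* over juvenile comparison and from 0.00093 to -0.24 in the juvenile over adult comparison. Changes are therefore relative to the bulk of expressed genes. All 8 osteoblast markers were above 3 counts in at least 1 library of every group, but all 8 were called lower in *c-Myc* than in juvenile libraries (median log2 fold change -2.30), and their sum went from 571305 to 839837 CPM in juvenile to 99803 to 132255 CPM in *c-Myc* and 56381 to 58314 CPM in *c-Myc* + *R172H* libraries. Of 5 marrow stromal markers, 4 were called lower in *c-Myc* libraries. Endothelial markers summed to at most 1.49 CPM and hematopoietic markers to at most 9.93 CPM in any library. The 5 osteoclast markers summed to 203 to 332 CPM in juvenile and 221 to 411 CPM in adult libraries. Their sum was 84.0 to 104 CPM in *c-Myc* and 52.2 to 52.3 CPM in *c-Myc* + *R172H* libraries. Of these markers, *Ocstamp* and *Calcr* were at or under 3 counts in every library. The 12 chondrocyte markers summed to 18589 to 36215 CPM in juvenile, 43993 to 138921 CPM in adult, 1874 to 2118 CPM in *c-Myc* and 876 to 1043 CPM in *c-Myc* + *R172H* libraries, and each of them was above 3 counts in at least 1 library of every group. Their part in the results below was not tested, and in bulk samples fewer cells of a type and less RNA per cell cannot be told apart. *Xist* had 234 CPM in *c-Myc* replicate 2, 212 CPM in *c-Myc* + *R172H* replicate 2 and at most 1.24 CPM elsewhere. The 2 induced groups thus each held 1 library with *Xist* and 1 without.

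The network genes lie on 8 chromosomes of GRCm38, and all of them are protein coding. *Myc* (ENSMUSG00000022346) spans chr15:61985391-61990374 on the plus strand, *Max* (ENSMUSG00000059436) chr12:76937269-76962201 on the minus strand, *Mxd1* (ENSMUSG00000001156) chr6:86647042-86669161 on the minus strand and *Mxd4* (ENSMUSG00000037235) chr5:34173883-34187720 on the minus strand. Exons of 4 members share bases with a gene on the opposite strand. The library kit was directional, but the strand setting of the counting is not given in the sources used here. The shared part was 19.3% of the exon bases of *Mlx* (with *Psmc3ip*), 6.06% for *Mxd4* (with *Gm42846*), 4.43% for *Mxd3* (with *Prelid1*) and 2.84% for *Mxi1* (with *Gm10197*), so the counts of these genes, above all *Mlx*, are uncertain to that extent.

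Because MYC–MAX and MXD–MAX dimers recognise the same E-box, the promoters of the members were searched for it. RefSeq windows of 250 bases before to 50 bases after the start (GRCm38.p6) were at hand for 9 of the 10 members, with no window for *Myc*. The palindrome CACGTG, which reads the same on both strands, occurred in the windows of 4 of these 9 members, compared with 8.09% of all 27025 genes with a window. The 4 matches are given on the strand of the gene, with the E-box in capitals and 12 bases on either side.
Max: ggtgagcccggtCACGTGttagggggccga
Mxd4: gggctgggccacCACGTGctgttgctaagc
Mnt: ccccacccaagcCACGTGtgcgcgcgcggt
Mlx: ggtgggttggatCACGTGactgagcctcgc
The first base of the motif lies at -3 in *Max* (chr12:76962234-76962263, minus strand), at -219 in *Mxd4* (chr5:34187912-34187941, minus strand), at -123 in *Mnt* (chr11:74830789-74830818, plus strand) and at -40 in *Mlx* (chr11:101087238-101087267, plus strand), counted from the start. A match is a description of the letters and no binding was measured. *Mxd1*, *Mxd3*, *Mxi1*, *Mycn* and *Mycl* had no such letters in their windows.

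*Myc* was the MYC paralog of these cells in every group. Its level was 44.3, 52.2, 39.8 and 47.2 CPM in juvenile replicates 1 to 4, 51.2, 44.7, 47.9 and 47.4 CPM in adult replicates 1 to 4, 624 and 658 CPM in the *c-Myc* libraries, and 639 and 748 CPM in the *c-Myc* + *R172H* libraries. The ages overlapped, every induced library was far above every control library, and the induced groups overlapped each other. *Mycn*, best known from embryonic and neural tissue, had 0 to 25 counts per library, with the 25 counts in juvenile replicate 2, and *Mycl* had 0 to 5 counts. At this depth, 3 counts correspond to between 0.137 and 0.417 CPM, so *Mycl* was at or under that floor in 9 of 12 libraries.

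**Figure D1:**
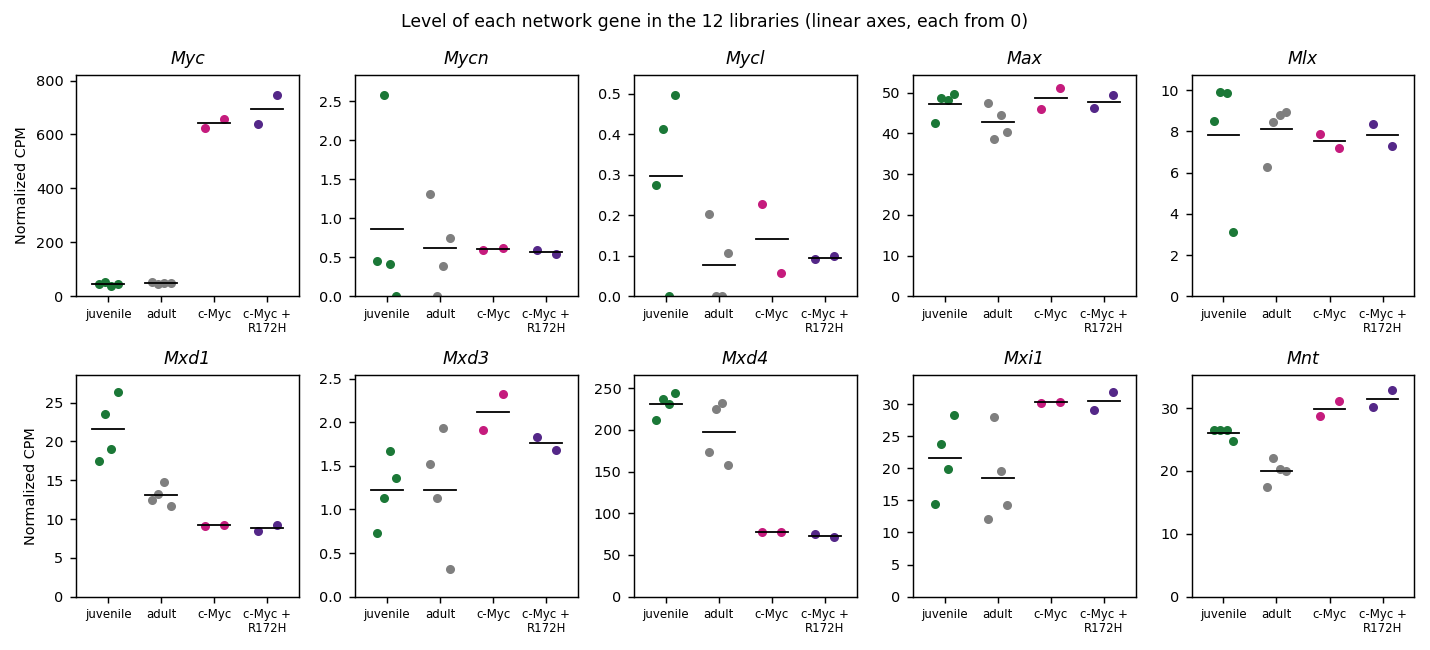
Normalized CPM (vertical axes, each linear from 0) of the 10 network genes in juvenile, adult, *c-Myc* and *c-Myc* + *R172H* libraries, with a point per library and a line at the group mean. *Myc* lies between 39.8 and 52.2 CPM in control and between 624 and 748 CPM in induced libraries, *Mxd4* drops from 212 to 245 CPM in juvenile to 71.1 to 77.3 CPM in induced libraries, and *Mxd1* is the antagonist whose juvenile and adult libraries differ and were called.

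The comparison of *c-Myc*-induced with juvenile osteoblasts asks what the transgene changed within its own network. *Myc* rose from 45.9 ± 5.22 CPM (SD, n = 4) to 641 ± 23.8 CPM (SD, n = 2), and its log2 fold change was 3.78 with SE 0.11 (edgeR quasi-likelihood F test, as in every comparison; adjusted p = 2.07e-09). The value was higher than that of 98.2% of the 12588 genes tested. It checks the labels of the induced libraries. *Mxd4* and *Mxd1* fell, and *Max* did not pass the test. Of the 9 members tested, 1 was called higher and 2 lower at an adjusted p below 0.05, whereas 53.4% of all genes tested were called, 28.4% higher and 25% lower. The 1 called higher was *Myc*, the induced gene itself. The 3 calls also exceeded an absolute log2 fold change of 1, a limit that 34.4% of all genes passed together with the test.

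*Max* encodes the obligate partner of MYC. It had 42.6, 48.7, 48.1 and 49.7 CPM in juvenile libraries, 47.5, 38.7, 44.4 and 40.3 CPM in adult libraries, 46.0 and 51.2 CPM in *c-Myc* libraries and 46.2 and 49.3 CPM in *c-Myc* + *R172H* libraries. All groups overlapped with juvenile. The log2 fold change with *c-Myc* was 0.02 (SE 0.11, adjusted p = 0.899), with a 95% interval from -0.20 to 0.24. With library totals *Max* was called higher (0.85, adjusted p = 0.000116), but its value then lay 0.017 below the median of all genes. *Mlx*, the second partner, had 8.49, 9.91, 9.87 and 3.11 CPM in juvenile replicates 1 to 4 and 7.20 and 7.86 CPM in *c-Myc* libraries. Juvenile replicate 4 stood apart from the other juvenile libraries, with 25 counts. The log2 fold change was -0.08 (SE 0.37, adjusted p = 0.861), and it turned to 0.05 without juvenile replicate 2 and to 0.02 without juvenile replicate 3.

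Among the antagonists, *Mxd4* was by far the most abundant in control cells and changed most. MXD4 accompanies differentiation and recruits SIN3 corepressors. Its level was 212, 238, 231 and 245 CPM in juvenile libraries, 77.3 and 77.2 CPM in *c-Myc* libraries, and 74.8 and 71.1 CPM in *c-Myc* + *R172H* libraries. Every induced library was below every juvenile library. The mean fell from 231 ± 14.3 CPM (SD, n = 4) to 77.2 ± 0.065 CPM (SD, n = 2), or by 1.60 on the log2 scale (SE 0.094, adjusted p = 5.52e-08). Of all genes tested, 10.5% had a lower value. *Mxd4* stayed called under every alternative that was run, between -1.68 and -0.77. The osteoblast, chondrocyte and marrow stromal markers given above, and the osteoclast sum, were lower in the same libraries. Their part in the lower *Mxd4* and *Mxd1* was not tested.

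*Mxd1*, the founding MXD gene, which is induced as many cell types leave the cycle, had 17.4, 23.5, 19.1 and 26.3 CPM in juvenile libraries, 12.5, 13.2, 14.7 and 11.7 CPM in adult libraries, and 9.13 and 9.24 CPM in *c-Myc* libraries. The *c-Myc* libraries lay below all control libraries. Relative to juvenile cells it fell by 1.25 on the log2 scale (SE 0.21, adjusted p = 0.000304). With library totals the value was -0.41 (adjusted p = 0.126), which was 1.28 below the median of all genes, so the call depended on the scaling while the distance from other genes did not.

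None of the remaining antagonists was called. *Mxi1*, a relative of the MXD genes, had 14.5, 23.8, 19.9 and 28.3 CPM in juvenile libraries and 30.3 CPM in both *c-Myc* libraries. Every *c-Myc* library lay above every juvenile library, and the fitted difference was 0.47 log2 units (SE 0.21, adjusted p = 0.0724). It was called without juvenile replicate 4 (0.62, adjusted p = 0.0119). *Mnt*, which is expressed in proliferating and resting cells alike, had 26.5, 26.5, 26.6 and 24.7 CPM in juvenile libraries and 28.7 and 31.1 CPM in *c-Myc* libraries, again without overlap (0.18, SE 0.13, adjusted p = 0.273). *Mxd3*, which differs from its relatives in being expressed in S phase, had 8 to 12 counts in juvenile and 41 to 42 counts in *c-Myc* libraries. After scaling, the means were 1.23 CPM in juvenile and 2.12 CPM in *c-Myc* libraries. The fitted difference was 0.79 (SE 0.53, adjusted p = 0.236), with a 95% interval from -0.26 to 1.84. With library totals *Mxi1*, *Mnt* and *Mxd3* (1.63, adjusted p = 0.0144) were called higher. In all, 4 members (the induced *Myc* among them) were separate and higher and 2 were separate and lower, compared with 35.1% and 29.4% of all genes tested.

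**Figure D2:**
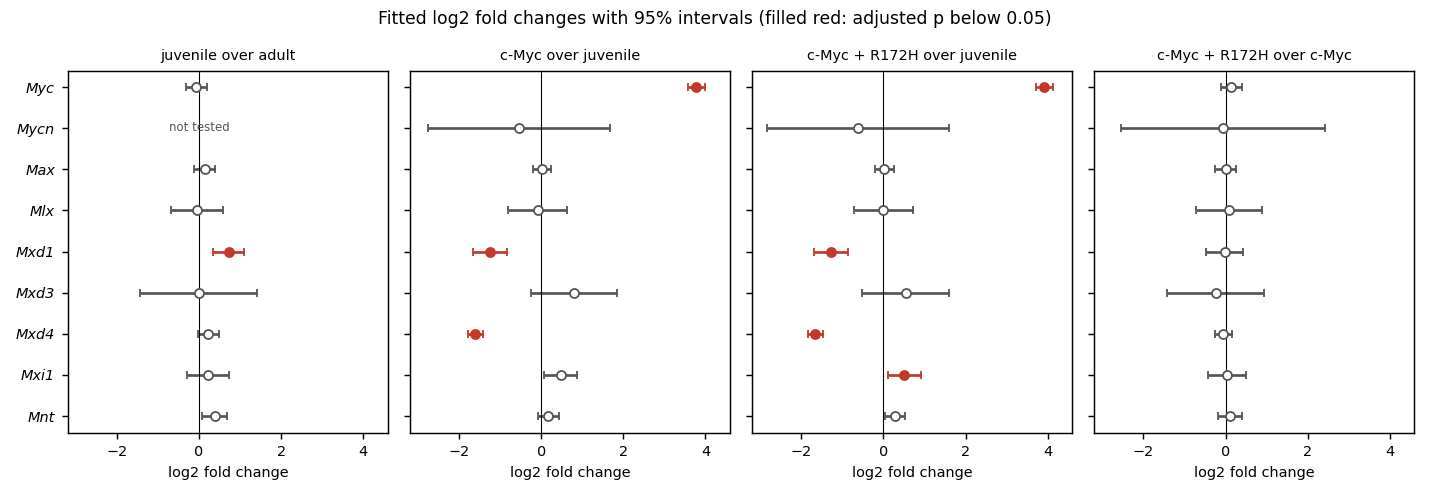
Fitted log2 fold changes (horizontal axis) with 95% intervals for the tested network genes (rows) in 4 comparisons, with filled red points for an adjusted p below 0.05. *Myc* lies near 3.8 and *Mxd4* and *Mxd1* lie below -1 in both comparisons of induced with juvenile libraries, which share the juvenile libraries, and no gene is filled in the comparison of *c-Myc* + *R172H* with *c-Myc*.

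Ratios within a library do not depend on how libraries are scaled to each other, so the make-up of the network was also expressed per kilobase relative to *Max*. *Myc* per *Max* was 0.864, 0.890, 0.687 and 0.789 in juvenile libraries, 0.896, 0.959, 0.896 and 0.978 in adult libraries, 11.3 and 10.7 in *c-Myc* libraries, and 11.5 and 12.6 in *c-Myc* + *R172H* libraries. *Myc* and *Max* transcripts were thus of similar abundance in control cells, and *Myc* was in large excess in induced cells. *Mxd4* per *Max* was 2.41 to 2.49 in juvenile, 1.83 to 2.91 in adult, 0.756 to 0.843 in *c-Myc* and 0.723 to 0.812 in *c-Myc* + *R172H* libraries. *Mxd4* outnumbered *Max* in every control library and was below it in every induced library. The MYC paralogs summed to 0.266 ± 0.032 (SD, n = 4) of the 5 antagonists in juvenile, 0.341 ± 0.078 (SD, n = 4) in adult, 7.61 ± 0.16 (SD, n = 2) in *c-Myc* and 8.48 ± 0.90 (SD, n = 2) in *c-Myc* + *R172H* libraries. With lengths of the union of exons in place of the longest coding transcript these ratios were 0.435, 0.563, 10.6 and 11.7, and *Myc* per *Max* was 1.29 in juvenile libraries, so the order of *Myc* and *Max* in control cells depends on the length used. The length used for *Myc* is that of the endogenous gene in every group. Which part of that transcript the transgene carries is not given in the sources used here. Ratios, shares and levels per kilobase of *Myc* in induced libraries are therefore approximate. Transcript ratios say nothing of protein amounts.

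The order of the members by CPM per kilobase differed between control and induced cells. In juvenile libraries *Mxd4* led with 59.7 ± 3.69 (SD, n = 4), followed by *Max* (24.3 ± 1.65) and *Myc* (19.6 ± 2.23), whose ranges overlapped. *Mnt*, *Mxd1*, *Mxi1* and *Mlx* followed between 3.99 and 5.68, each overlapping its neighbour, and *Mxd3*, *Mycn* and *Mycl* were below 1. In *c-Myc* libraries *Myc* led with 274 ± 10.2 (SD, n = 2), followed by *Max* (25.0 ± 1.90) and *Mxd4* (19.9 ± 0.017), and no neighbours overlapped. *Mxd4* made up 79.4 ± 1.17% (SD, n = 4) of the antagonist transcripts in juvenile, 81.2 ± 0.90% (SD, n = 4) in adult, 55.3 ± 0.96% (SD, n = 2) in *c-Myc* and 53.8 ± 2.22% (SD, n = 2) in *c-Myc* + *R172H* libraries.

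**Figure D3:**
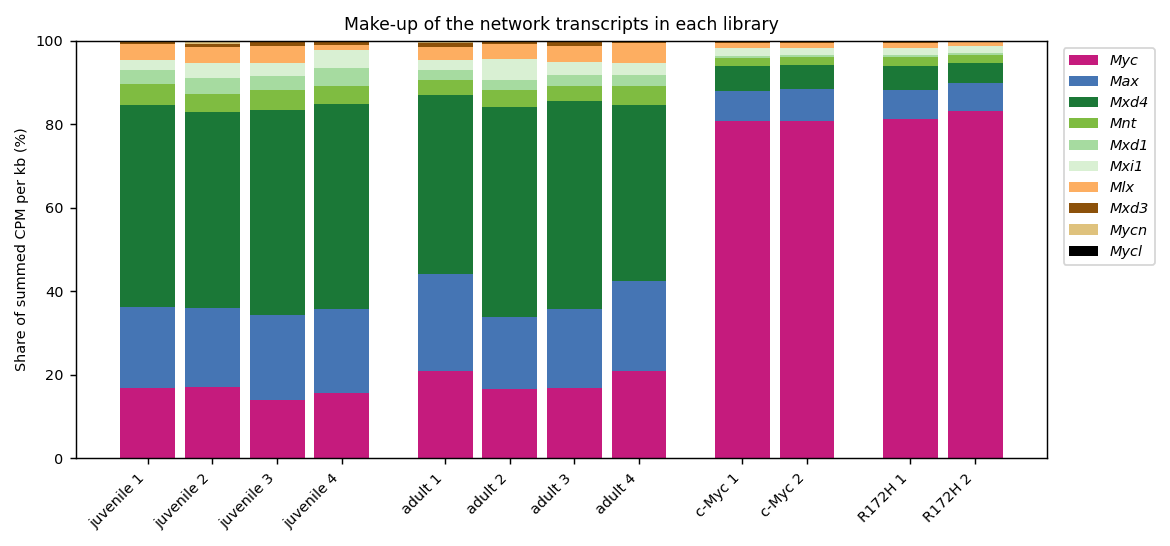
Share of each network gene in the summed CPM per kilobase of the 10 genes (vertical axis, %), with a stacked bar per library and R172H standing for *c-Myc* + *R172H*. *Myc* takes 13.98 to 20.995% of the sum in the 8 control libraries and 80.8 to 83.2% in the 4 induced libraries, while the share of *Mxd4* drops from 42.2 to 50.3% to between 4.78 and 6.04%. The shares are parts of a common sum, so the rise of *Myc* lowers those of all other genes. The share of *Max*, whose level was not called different, averages 19.7% in juvenile and 7.37% in *c-Myc* libraries.

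The comparison of juvenile with adult osteoblasts asks whether the network differs between growth and maturity. *Mxd1* was the single member called. Juvenile libraries had 21.6 ± 4.08 CPM (SD, n = 4) of it against 13.03 ± 1.29 CPM (SD, n = 4) in adults, a difference of 0.72 log2 units (SE 0.19, adjusted p = 0.0395). The lowest juvenile library (17.4 CPM) lay above the highest adult library (14.7 CPM). Of the 8 members tested, 1 was called higher and none lower, beside 5.12% of the 11345 genes tested (1.89% higher and 3.23% lower), and 2 members reached an unadjusted p below 0.05, as did 19.7% of all genes. The call of *Mxd1* was fragile. It was lost without juvenile replicate 2, juvenile replicate 4, adult replicate 1, adult replicate 3 or adult replicate 4, with an adjusted p from 0.0545 to 0.116, although the fold change stayed between 0.61 and 0.82. With library totals it was 0.47 (adjusted p = 0.192). Relative to *Max* in the same library, *Mxd1* per kilobase was 0.165 to 0.221 in juvenile and 0.109 to 0.142 in adult libraries, without overlap.

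The *Myc* gene itself averaged 45.9 ± 5.22 CPM (SD, n = 4) at the juvenile age and 47.8 ± 2.68 CPM (SD, n = 4) at the adult age. The log2 difference was -0.07 (SE 0.13, adjusted p = 0.843) with a 95% interval from -0.32 to 0.18. *Mnt* was the other member whose ages did not overlap, at 26.5, 26.5, 26.6 and 24.7 CPM in juvenile and 17.4, 22.01, 20.3 and 19.9 CPM in adult libraries (0.38, SE 0.16, unadjusted p = 0.0269, adjusted p = 0.180). Such a separation with higher juvenile values occurred in 6.02% of all genes tested. *Mxd4* was 173, 225, 232 and 158 CPM in adult libraries and overlapped the juvenile range (0.22, SE 0.13, adjusted p = 0.388). *Mxi1*, at 12.1, 28.0, 19.7 and 14.3 CPM in adult libraries, also overlapped (0.22, adjusted p = 0.718). *Max*, *Mxd3* and *Mlx* were not called (adjusted p = 0.623, 0.997 and 0.960).

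The comparison of *c-Myc* + *R172H* with *c-Myc* osteoblasts asks whether mutant p53 alters the network beyond the transgene. No member was called, and none of the 9 reached an unadjusted p below 0.05 with edgeR. Of all genes tested, 0.469% were called (0.00794% higher and 0.461% lower) and 4.68% reached an unadjusted p below 0.05. These shares depend on the libraries in the fit. With only the 2 compared groups, 189 of 12170 genes were called higher and 440 lower, and again no member. DESeq2 also called no member. *Myc* was 693 ± 76.7 CPM (SD, n = 2) against 641 ± 23.8 CPM (SD, n = 2), which differed by 0.14 log2 units (SE 0.13, adjusted p = 1) with a 95% interval from -0.10 to 0.39. The intervals for *Max* (-0.25 to 0.26), *Mxd4* (-0.25 to 0.15), *Mnt* (-0.18 to 0.39), *Mxd1* (-0.49 to 0.44) and *Mxi1* (-0.42 to 0.50) bound differences in either direction. The interval for *Mxd3* (-1.42 to 0.94) held decreases of more than 2-fold. Its upper end came so close to increases of that size that they are not excluded, since these intervals are approximate. That for *Mycn* (-2.54 to 2.42) held differences of that size in either direction. *Mxd4* and *Mxd3* were lower in both *c-Myc* + *R172H* libraries than in both *c-Myc* libraries, a pattern shown by 24% of all genes tested.

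Against juvenile cells, which both comparisons share, the *c-Myc* + *R172H* libraries gave 2 members higher and 2 lower of 9 tested, beside 56.7% of all genes tested (30.4% higher and 26.3% lower). Without regard to the test, 4 members (the induced *Myc* among them) were separate and higher and 2 separate and lower, compared with 36.9% and 30% of all genes. *Myc* rose by 3.92 on the log2 scale (SE 0.11, adjusted p = 5.24e-10), *Mxd4* was at -1.66 (SE 0.094, adjusted p = 2.73e-08) and *Mxd1* at -1.28 (SE 0.21, adjusted p = 0.00024), side by side with 3.78, -1.60 and -1.25 for *c-Myc* alone. *Mxd1* had 8.42 and 9.28 CPM in these libraries, and its call was lost with library totals (-0.22, adjusted p = 0.378). *Mxi1*, at 29.2 and 32.0 CPM, was the other member called higher (0.51, SE 0.21, adjusted p = 0.0499). When 1 library at a time was left out, this call held in 1 of 8 fits, that without juvenile replicate 4, and the adjusted p ranged from 0.00778 to 0.291. *Mxi1* did not differ detectably between the induced groups (0.04, SE 0.23, adjusted p = 1). *Mnt*, at 30.2 and 32.9 CPM, was at 0.28 (SE 0.13, adjusted p = 0.0805).

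**Figure D4:**
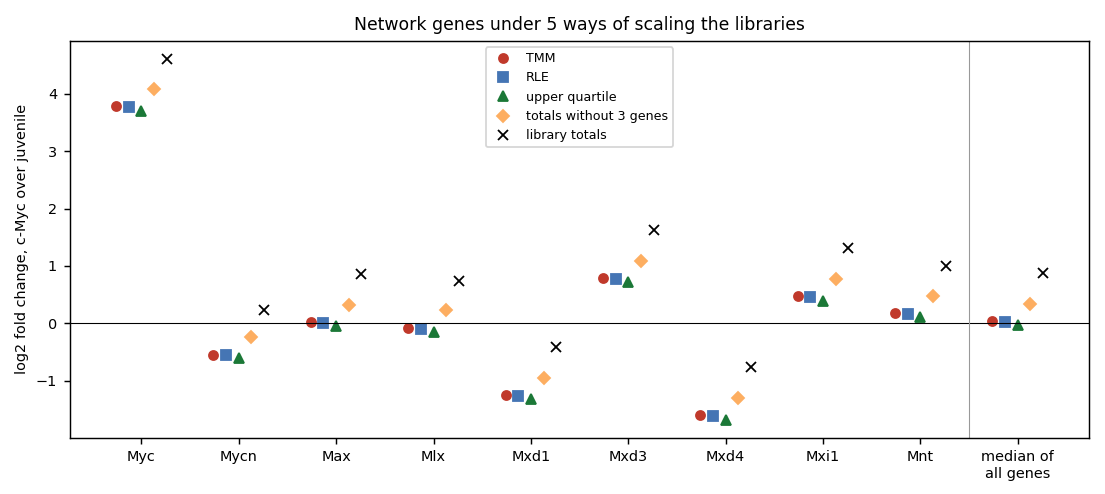
Log2 fold changes of *c-Myc* over juvenile (vertical axis) for the 9 tested network genes and for the median of all genes tested, under 5 ways of scaling the libraries (symbols). The points of each gene move up with the median of all genes, from 0.04 with TMM to 0.87 with library totals, so *Max* stays close to the median, *Myc* far above it and *Mxd4* and *Mxd1* below it.

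Other genes of the pathway were taken from lists that were chosen with earlier results of these data known, so their counts are a description. They are given first for the *c-Myc* over juvenile comparison. Of 47 genes known as targets activated by MYC, 45 were called higher and none lower, beside 28.4% and 25% of all genes tested. Their median log2 change was 1.90, compared with 0.04 for all genes tested. The largest increases were those of *Dnph1*, a nucleotide hydrolase (5.06, SE 0.43, adjusted p = 1.07e-06), and *Shmt1*, a serine hydroxymethyltransferase (5.02, SE 0.27, adjusted p = 3.33e-08). *Shmt1* had 1.14 to 3.85 CPM in juvenile and 63.1 to 82.6 CPM in *c-Myc* libraries. *Nme2* and *Ccnd2* were the 2 exceptions, named after their values were seen, at -0.01 and -0.04. Proliferation markers summed to 53.1 to 84.1 CPM in juvenile and 307 to 324 CPM in *c-Myc* libraries, and their part in these list counts was not tested.

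Genes listed as repressed by MYC, some of them through the factor MIZ1, were divided, and the route of repression was not tested. Of 14 genes, 6 were called lower and 1 higher, with a median of -0.25, beside 25% and 28.4% of all genes tested. The largest decreases were those of *Cdkn1c*, a cell cycle inhibitor (-3.31, SE 0.39, adjusted p = 2.05e-05), which went from 27.7 to 87.2 CPM in juvenile to 6.07 to 6.24 CPM in *c-Myc* libraries, and of *Thbs1*, a matricellular protein (-2.31, SE 0.15, adjusted p = 1.19e-07). *Cebpa*, a myeloid and adipocyte factor, was the 1 gene called higher (0.56, SE 0.19, adjusted p = 0.0268), and none was called higher without juvenile replicate 1 or either *c-Myc* library. With library totals, 4 genes of this list were called lower and 5 higher.

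Of 19 MYC coactivator genes, 14 were called higher and 1 lower (median 0.51), beside 28.4% and 25% of all genes tested. Without *c-Myc* replicate 2, 9 were called higher. The AAA+ helicases *Ruvbl2* (2.97, SE 0.13, adjusted p = 1.17e-08) and *Ruvbl1* (2.47, SE 0.15, adjusted p = 8.87e-08) rose most, and *Crebbp*, an acetyltransferase, was called lower (-0.26, SE 0.10, adjusted p = 0.045). Its call was lost in every fit that left out a library except that without juvenile replicate 3, and in 5 of 10 other settings. *Ruvbl2* had 12.8 to 19.0 CPM in juvenile and 127 to 141 CPM in *c-Myc* libraries. Of 22 genes that act on MYC protein stability, 12 were called higher and 4 lower (median 0.61), beside the same 28.4% and 25%. The number called lower was 2 without juvenile replicate 2, juvenile replicate 3, *c-Myc* replicate 1 or either *c-Myc* + *R172H* library, and it ranged from 0 with library totals to 6 with upper-quartile factors. The kinases *Plk1* (3.01, SE 0.28, adjusted p = 1.83e-06) and *Aurka* (2.78, SE 0.38, adjusted p = 5.59e-05) led the increases. The F-box genes *Fbxo32* (-1.12, SE 0.27, adjusted p = 0.00329) and *Fbxo28* (-0.76, SE 0.15, adjusted p = 0.00105) led the decreases.

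MXD proteins repress through the SIN3 complex. Of 15 genes listed for this complex and related corepressors, 6 were called higher and 1 lower (median 0.24), beside 28.4% and 25% of all genes tested. *Sap30* (1.88, SE 0.35, adjusted p = 0.000604) and *Rbbp7* (1.18, SE 0.19, adjusted p = 0.000228) rose, and *Sin3b*, a scaffold of the complex, fell (-0.52, SE 0.13, adjusted p = 0.00375). With library totals 13 of the 15 were called higher and none lower, so the direction for *Sin3b* depends on the scaling.

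**Figure D5:**
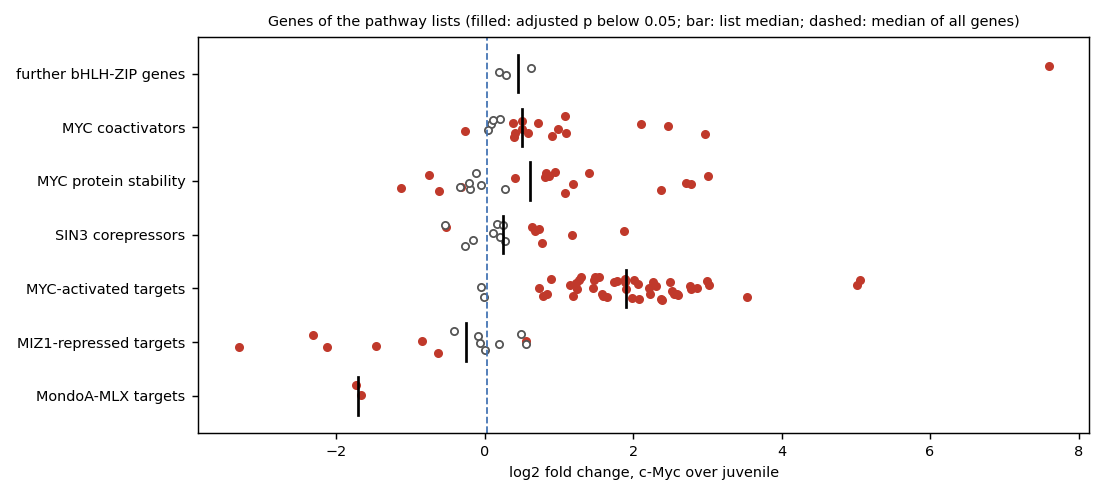
Log2 fold changes of *c-Myc* over juvenile (horizontal axis) for every tested gene of 7 pathway lists (rows), filled where the adjusted p is below 0.05, with a bar at the list median and a dashed line at the median of all genes tested. The activated targets lie almost wholly to the right of the dashed line, with a median of 1.90, and the point near 7.6 is *Mlxipl*, whose fitted value depends on the prior count because juvenile libraries held 1 read of it.

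The partners of MLX gave a separate picture. *Mlxipl*, which encodes the glucose-responsive factor ChREBP, had 1 count in the 4 juvenile libraries together, 127 and 157 counts in the *c-Myc* libraries (7.20 and 7.17 CPM) and 92 to 135 counts in the *c-Myc* + *R172H* libraries. Summed counts were 266-fold higher in *c-Myc* than in juvenile libraries after scaling, with a 95% exact interval from 47.3 to 10524 that covers counting error only. *Mlxipl* was called in this comparison (adjusted p = 1.56e-06). *Mlxip*, which encodes MondoA, was at 0.20 (SE 0.12, adjusted p = 0.191), *Mga*, a further MAX partner, at 0.29 (SE 0.16, adjusted p = 0.155), and *Bmyc* at 0.62 (SE 0.32, adjusted p = 0.124). *Mycs* could not be tested. *Txnip* and *Arrdc4*, a pair of arrestin genes that MondoA and MLX activate, were both called lower (-1.67, SE 0.27, adjusted p = 0.000237 and -1.74, SE 0.35, adjusted p = 0.00106). *Txnip* had 54.5 to 130 CPM in juvenile and 26.8 to 26.9 CPM in *c-Myc* libraries, and *Arrdc4* had 10.7 to 29.1 CPM and 5.07 to 6.24 CPM.

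Between *c-Myc* + *R172H* and *c-Myc* the lists held a single called gene, *Thbs1* (-1.09, SE 0.16, adjusted p = 0.0103), at 90.4 and 115 CPM in *c-Myc* and 43.8 and 50.4 CPM in *c-Myc* + *R172H* libraries. In juvenile over adult, 3 of 46 activated targets were called lower, beside 3.23% of all genes tested. They were *Paics*, a purine synthesis enzyme (-1.06, SE 0.21, adjusted p = 0.0125), *Ldha*, lactate dehydrogenase A (-0.90, SE 0.22, adjusted p = 0.0344), and *Hspd1*, a mitochondrial chaperone named after its value was seen (-0.84, SE 0.16, adjusted p = 0.00759). None was called higher. The number called lower was 7 without adult replicate 2, 6 with all 12 libraries in the fit and 8 with library totals. Of the 14 repressed targets, 1 was called higher and 2 lower, beside 1.89% and 3.23% of all genes tested, with a median of -0.33. *Cdkn1a*, which encodes p21, was higher (0.49, SE 0.14, adjusted p = 0.0476), and *Ccn2*, a matricellular growth factor (-1.61, SE 0.35, adjusted p = 0.0407), and *Thbs1* (-0.84, SE 0.15, adjusted p = 0.00488) were lower. The call of *Cdkn1a* was lost without any 1 of the juvenile libraries, adult replicate 1 or adult replicate 4, and 1 gene in place of 2 was called lower without juvenile replicate 1, juvenile replicate 3, adult replicate 1, adult replicate 3 or adult replicate 4. *Fbxo32* was higher in juvenile cells (0.95, SE 0.25, adjusted p = 0.036), and this call was lost without juvenile replicate 1, juvenile replicate 4, adult replicate 1 or adult replicate 4. No gene of the coactivator list or the SIN3 corepressor list was called between the ages.

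The genes whose centred log2 profile over the 12 libraries was closest to a member's were taken from 13005 genes as a description. For *Myc* they were *Slc47a1*, *Pcbd1* and *Wnt10a*, with a root mean square difference of 0.16, 0.20 and 0.24 log2 units. For *Mxd4* they were *Mxra8*, *Sec24d* and *Cd47* (0.098, 0.10 and 0.11), and for *Mxd1* they were *Ube2e2*, *Fam171a2* and *Antxr2* (0.14, 0.14 and 0.16). All genes of a library share its depth and composition.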

How the data were processed

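Single-end reads were trimmed by the authors (cutadapt 4.6), mapped to mm10 (STAR 2.7.11a) and summed per gene (HTSeq 2.0.5). The authors deposited these raw counts unnormalized, and they used one GENCODE release for mapping and another for counting. Groups and replicate numbers came from the sample titles. Replicates of a group were separate samples, and no pair of them agreed within sampling noise (chi-square per degree of freedom of their counts, 5.45 to 136). Controls were pools of mice. The sources describe every library as made from pooled osteoblasts. The 2 libraries of each induced group differed in *Xist*, and the number of animals in them is not given in the sources used here. The p-values measure the spread between these samples.

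Models were fitted with edgeR 4.0.16 under R 4.3.3 (TMM, default expression filter, robust quasi-likelihood F test, Benjamini-Hochberg adjustment over all genes, threshold 0.05). The age comparison used 8 libraries, and the other 3 shared a fit of the juvenile and both induced groups. The SE was obtained as the absolute log2 change over the root of the F statistic. Lengths are from GENCODE M21. The members, the gene lists and the rule for named genes (members; up to 2 called genes per list and direction with a mean of at least 10 normalized counts; lists of under 6 genes in full; the 3 nearest profiles) were chosen with earlier results of these data known. On simulated data with a log2 fold change of 1, the age fit recovered 97 of 193 altered genes (11092 genes), the *c-Myc* over juvenile fit 103 of 195 (12241 genes) and the *c-Myc* + *R172H* over *c-Myc* fit 83 of 192 (12239 genes), with 4, 2 and 5 unaltered genes called. The simulation gave all groups the same means apart from these few genes, altered equally often up and down. It therefore does not cover the shift in composition between induced and juvenile libraries. Totals of 9066154 to 15684412 counts set the depth, and a floor of 3 counts covers counting error only, since reads carry no molecular identifiers. The alternatives were RLE and upper-quartile factors, library totals, no filter, DESeq2 1.42.0, other libraries in the fit, a replicate block, a fold limit and each library left out. Same-numbered libraries did not deviate together between juvenile and adult (correlation -0.066 to 0.044).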

Additional observations from a re-analysis of the deposited data

Results flagged for a closer look

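*Mnt* in juvenile replicate 4, at 24.7 CPM, lay apart from the other juvenile libraries, which ranged from 26.5 to 26.6 CPM. Of 20 sets of 4 libraries tested over the members, 1 stood out in this way, and chance alone gives about 1 in 20. Reads counted to the tdTomato reporter, which takes part in no comparison here, were higher in every induced library (lowest 28.9 CPM, highest 34.5 CPM) than in any control library (0.695 to 8.68 CPM). Only the induced groups carried the mCherry cassette, and whether its reads were counted to the tdTomato entry was not tested.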

How the results depend on the processing

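*Myc* and *Mxd4* kept their direction and their call in every alternative of both comparisons with juvenile libraries (adjusted p of *Mxd4* at most 0.00104). Over all members and comparisons, 529 of 621 alternative values kept direction and side of the threshold. The 54 that turned direction belonged to genes not called in that comparison. Causes were not tested beyond what follows from the scaling or from fewer libraries. In juvenile over adult, the number of members called higher was 0 with library totals, 0 with a fold limit and 0 with the replicate block, and 0 to 1 with each library left out. In *c-Myc* over juvenile it was 5 with library totals (1 lower), 4 with totals without *Col1a1*, *Col1a2* and *Gm26917*, and 2 with no filter, with the replicate block or with edgeR's small-count adjustment, and 1 to 2 with each library left out. In *c-Myc* + *R172H* over juvenile it was 6 with library totals (1 lower), 4 with totals without those 3 genes, and 1 with RLE factors, upper-quartile factors, DESeq2, all 12 libraries, only the compared groups or the fold limit, and 1 to 2 with each library left out. The totals without 3 genes, the small-count adjustment, the exon-union lengths and the list counts under other settings were chosen after seeing the data. Title numbers were not taken to pair libraries. With them as a replicate block *Mxd1* lost its call between the ages (0.71, adjusted p = 0.0743) and *Mxi1* gained one in *c-Myc* (0.66, adjusted p = 0.00253), while *Mxd3* turned to 0.098 in juvenile over adult and *Mlx* to -0.23 in *c-Myc* + *R172H* over juvenile. The block changed the calls over all genes tested in juvenile over adult from 214 higher and 367 lower to 166 and 268. In *c-Myc* + *R172H* over *c-Myc* it changed them from 1 higher and 58 lower to 30 and 296. Same-numbered deviations of these groups correlated at 0.160, a single value because the 2 libraries of a group deviate as mirror images. *Xist* was at 234 and 212 CPM in replicate 2 of the induced groups and at most 0.183 CPM in replicate 1. Number and *Xist* thus cannot be told apart there.

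With library totals, values turned to -0.11 for *Max*, -0.0080 for *Mxd4* and -0.021 for *Mxi1* in juvenile over adult, to 0.24 for *Mycn* and 0.73 for *Mlx* in *c-Myc* over juvenile, to 0.15 for *Mycn*, 0.19 for *Mxd1* and 0.16 for *Mxd4* in *c-Myc* + *R172H* over *c-Myc*, and to 0.38 for *Mycn* in *c-Myc* + *R172H* over juvenile. With totals without 3 genes they turned to 0.080 for *Myc*, 0.14 for *Mxd3* and 0.072 for *Mlx* in juvenile over adult, 0.23 for *Mlx* in *c-Myc* over juvenile and 0.0055 for *Mxd1* in *c-Myc* + *R172H* over *c-Myc*. *Max* turned to -0.019 (RLE), -0.018 (DESeq2) and -0.025 (12 libraries) in *c-Myc* + *R172H* over *c-Myc*, to -0.055 (upper quartile) in *c-Myc* over juvenile, and to -0.010 (RLE), -0.039 (upper quartile), -0.0059 (DESeq2) and -0.023 (compared groups) in *c-Myc* + *R172H* over juvenile. *Mlx* in the latter turned to -0.030 (RLE), -0.059 (upper quartile), -0.026 (DESeq2), -0.0038 (12 libraries), -0.040 (compared groups) and -0.0055 (small-count adjustment). With each library left out, ranges that crossed 0 were -0.33 to 0.28 for *Mxd3* and -0.18 to 0.21 for *Mlx* in juvenile over adult, and -0.96 to 0.98 for *Mycn*, -0.063 to 0.099 for *Max* and -0.35 to 0.045 for *Mlx* in *c-Myc* over juvenile. They were -0.0092 to 0.23 for *Myc*, -0.10 to 0.059 for *Max*, -0.13 to 0.023 for *Mxd1*, -0.061 to 0.085 for *Mxi1* and -0.037 to 0.15 for *Mlx* in *c-Myc* + *R172H* over *c-Myc*, and -1.02 to 0.92 for *Mycn*, -0.057 to 0.048 for *Max* and -0.26 to 0.13 for *Mlx* in *c-Myc* + *R172H* over juvenile.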

Other observations

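The E-box CACGTG was also counted in the RefSeq promoter windows of the genes tested, as a description with no test. Among genes with a window, it occurred in 13.5% of the 2856 called higher in *c-Myc* over juvenile, in 10.6% of the 2426 called lower and in 11.8% of the 4528 not called. Of the MYC-activated targets, 10 of 38 with a window held it (26.3%). Between the ages the shares were 12.8% for genes higher in juvenile cells, 11.3% for genes lower and 12.2% for genes not called.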
